A study of Mus musculus with 4 samples.

Results

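The genes described here are RAS switch genes and feedback regulators of the RAS-ERK mitogen pathway, measured in epithelial tumour cells that were sorted from squamous cell carcinomas induced chemically in mouse skin. The members were the 9 genes Hras, Nras, Dusp4, Dusp5, Dusp6, Spry1, Spry2, Spry4 and Spred1, and every probe set that the platform's gene table assigned to 1 of them alone was taken. This gave 21 of the 45037 probe sets tested and 8 of 18193 named genes. The gene table used names no probe set for Hras, so its transcript level was not analysed here. Nras was therefore the only RAS gene among the members with a value. The sort kept cells carrying the epithelial surface protein Epcam and removed those with CD45, CD31 or CD140a, which mark leukocytes, endothelium and fibroblasts. Cells positive for the Sox2-GFP reporter (n = 2 arrays) were compared with cells of the same gate that were negative for it (n = 2 arrays). The cells came from 2 tumours of 2 mice according to the series text, and the labels give neither the strain, the age, the chemicals, the reporter's construction nor whether a replicate number marks 1 tumour. The p-values therefore measure only the spread between these 4 arrays.

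RAS proteins are membrane-bound switches that relay growth factor signals through the kinases RAF, MEK and ERK. ERK in turn raises the transcription of genes that restrain the same pathway. Among them are dual-specificity phosphatases (Dusp), which remove the activating phosphates from ERK and related kinases, and Sprouty and Spred proteins, which act between the receptor and RAF. For that reason transcripts of these feedback genes are widely read as a sign of recent ERK signalling, and in mouse skin a RAS mutation is a usual first step of chemically induced tumours. An array of this kind reads the amount of a transcript and not its sequence, so a RAS mutation could not be seen here.

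The deposited values are log2 signals, with array medians between 5.49 and 5.61 and 5th percentiles between 3.34 and 3.37. They come without detection calls, so a value near 4 or below only bounds a transcript's level. Differences were taken between arrays within a probe set. Levels of different probe sets were compared only to pick the brightest of a gene and to leave out dim ones. They were averaged for the marker lists. Keratinocyte markers were bright in every array: the mean over Krt5, Krt14, Trp63, Itga6, Cdh1 and Dsp was 12.20 and 12.43 in the positive arrays against 12.36 and 12.46 in the negative arrays. That mean joins genes of opposite direction. Both positive arrays lay above both negative arrays in 3 of the 6 genes and below them in 3, beside 35.5% and 14% of all genes. None passed the test (lowest limma adjusted p = 0.328). Markers of cells outside the gate differed between arrays. The mean of 11 fibroblast markers was 8.82 and 6.72 in positive replicates 1 and 2 and 10.86 and 9.36 in negative replicates 1 and 2. The mean of 10 endothelial markers was 6.11 and 5.28 against 7.48 and 6.004, and that of 10 immune markers 5.49 and 4.89 against 6.33 and 5.36. Negative replicate 1 was thus highest and positive replicate 2 lowest in all 3 lists. No marker was at 0, and in arrays of sorted cells a smaller number of cells of a type and less transcript per cell cannot be told apart. Of the gate genes, Epcam read 10.75 and 11.79 against 11.24 and 11.80, Pdgfra (CD140a) 5.93 and 4.85 against 7.83 and 5.96, Pecam1 (CD31) 5.57 and 6.41 against 8.44 and 6.27, and Ptprc (CD45) 4.98 and 4.34 against 4.97 and 4.18.

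Promoter sequences of 7 of the 9 members were found in the RefSeq promoter table (GRCm38.p6). Shown are the 250 bases before the annotated start of 3 feedback genes that were highest in the same array, Dusp5, Dusp6 and Spry2, and of Spry1, which was highest in another. Capitals mark matches on either strand to sites of factors that mitogen signalling acts on: the ETS cores GGAAGT and CCGGAA, the AP-1 site TGANTCA and the CArG box bound by serum response factor.
Dusp5, chr19:53528895-53529144, plus strand: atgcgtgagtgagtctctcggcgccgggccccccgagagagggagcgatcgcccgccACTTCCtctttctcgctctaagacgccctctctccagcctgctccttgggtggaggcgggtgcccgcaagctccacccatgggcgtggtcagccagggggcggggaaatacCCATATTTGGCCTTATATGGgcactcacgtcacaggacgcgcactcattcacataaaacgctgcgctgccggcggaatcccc
Dusp6, chr10:99262981-99263230, plus strand: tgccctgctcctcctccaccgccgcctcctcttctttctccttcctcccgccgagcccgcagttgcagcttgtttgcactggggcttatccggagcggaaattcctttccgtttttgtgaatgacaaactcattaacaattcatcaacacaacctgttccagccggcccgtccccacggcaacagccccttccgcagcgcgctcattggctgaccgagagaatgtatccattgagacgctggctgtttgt
Spry2, chr14:105896820-105897069, minus strand: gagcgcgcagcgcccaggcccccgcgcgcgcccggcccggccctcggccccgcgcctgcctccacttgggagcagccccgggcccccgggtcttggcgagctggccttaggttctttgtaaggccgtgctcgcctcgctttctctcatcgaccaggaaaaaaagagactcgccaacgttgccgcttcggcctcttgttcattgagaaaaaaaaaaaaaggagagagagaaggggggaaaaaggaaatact
Spry1, chr3:37639697-37639946, plus strand: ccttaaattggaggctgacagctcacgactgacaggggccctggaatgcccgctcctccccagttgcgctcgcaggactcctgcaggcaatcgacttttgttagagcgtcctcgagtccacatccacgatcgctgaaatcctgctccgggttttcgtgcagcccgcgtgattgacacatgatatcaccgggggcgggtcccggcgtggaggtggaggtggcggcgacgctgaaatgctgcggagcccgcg
Dusp5 held a GGAAGT core 193 to 188 bases before the start and 2 CArG boxes side by side at 82 to 73 and 72 to 63 bases before it. None of these motifs was found in the windows of Dusp6, Spry2 and Spry1. Of the 7 members searched 2 held a match, Dusp5 and Hras. The window of Hras, not shown, held a CCGGAA core 162 to 157 bases before the start. A CArG box was present in 1.47% of the 32851 promoter windows of the same length, GGAAGT in 19.7%, CCGGAA in 12% and TGANTCA in 6.75%; no 2 matches overlapped. A match describes the letters and does not show binding.

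The comparison asked whether RAS genes and the feedback regulators of ERK differ between tumour cells with and without the Sox2-GFP reporter. No member differed by the test, and the feedback genes did not share 1 pattern over the arrays. Spry2 had the widest separation upward, while Spry4 and Spry1 lay lower in positive cells on average, which rested largely on 1 of the 2 negative arrays. The phosphatase genes Dusp4, Dusp5 and Dusp6 were high in 1 of the 2 positive arrays and not in the other. The 3 Nras probe sets and 7 of the 8 Spred1 probe sets varied by less than 1 log2 unit over the 4 arrays.

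By limma, fitted over all probe sets with Benjamini-Hochberg adjustment, 0 of 21 member probe sets passed an adjusted p of 0.05, beside 0% of all probe sets (0 of 45037). Adjusted p ran from 0.344 to 0.997 among the members, and the lowest of all probe sets was 0.226. At an unadjusted p under 0.05 there were 0 member probe sets higher, beside 7.44% of all probe sets, and 1 lower, a Spry4 probe set, beside 6.61%. The log2 difference, positive minus negative, was above 0 in 11 of 21 and below 0 in 10. Its median was 0.08 over the members and 0.07 over all probe sets; with 1 probe set per gene it was 0.026 over 8 member genes and 0.14 over all genes. Both positive arrays lay above both negative arrays in 4 of 21 member probe sets (29.7% of all probe sets) and below them in 3 (18.4% of all). Scaling the arrays to their bacterial spike-in transcripts in place of the deposited scale adds 0.69 to every log2 difference. It passes 4 member probe sets as higher, 1 each of Nras and Spry2 and 2 of Spred1 (limma adjusted p = 0.0414 to 0.0421), while over all probe sets 18219 pass as higher and 314 as lower. The median over all probe sets then becomes 0.75, so differences given here are relative to the rest of the array.

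**Figure D1:**
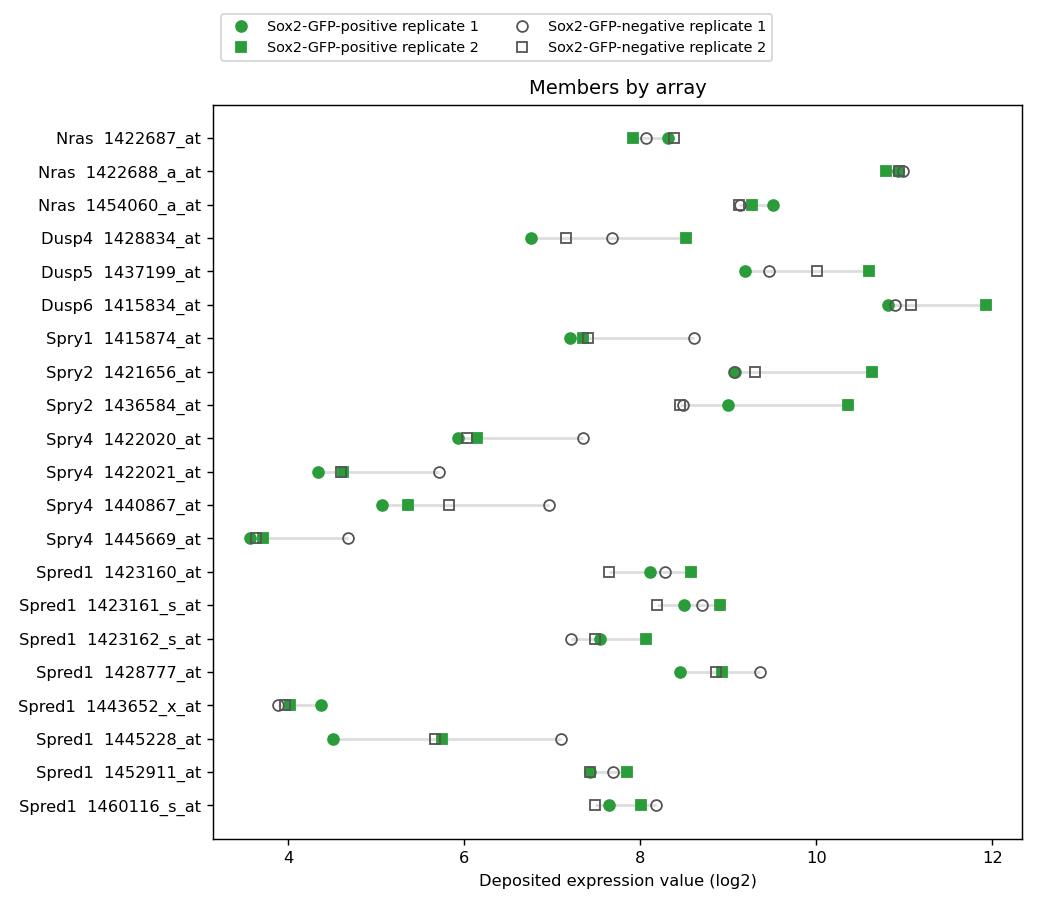
Each row is 1 probe set of a member gene and each symbol 1 array, on the deposited log2 scale (filled green, Sox2-GFP-positive; open grey, Sox2-GFP-negative; circles, replicate 1; squares, replicate 2). Dusp4, Dusp5, Dusp6 and Spry2 have their highest value in positive replicate 2, and Spry1 and all 4 Spry4 probe sets in negative replicate 1.

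Nras encodes 1 of the classical RAS proteins and was read by 3 probe sets. Probe set 1422688_a_at read 10.92 and 10.80 in the positive arrays against 10.99 and 10.94 in the negative arrays. Probe set 1454060_a_at read 9.51 and 9.27 against 9.13 and 9.12, and 1422687_at read 8.32 and 7.92 against 8.07 and 8.39. The first lay lower and the second higher in both positive arrays, and the third overlapped, so the probe sets did not share a direction. Their log2 differences were -0.10 (95% interval of limma -0.57 to 0.36), 0.26 (-0.23 to 0.76) and -0.11 (-0.74 to 0.52), and none of the intervals reaches 1 on this scale in either direction. Adjusted p was 0.822, 0.569 and 0.865 in limma.

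Dusp4 encodes a nuclear phosphatase of ERK and other MAP kinases. It read 6.76 and 8.52 in positive replicates 1 and 2 and 7.68 and 7.15 in negative replicates 1 and 2. The positive arrays held both the lowest and the highest value, so the groups overlapped fully. Between same-numbered arrays the log2 difference was -0.92 for replicate 1 and 1.37 for replicate 2, and the mean difference came to 0.22 ± 0.92 (SE, n = 2 per group, limma adjusted p = 0.901).

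Dusp5 encodes a nuclear phosphatase selective for ERK. It read 9.19 and 10.60 in the positive arrays against 9.47 and 10.01 in the negative arrays, again with both extremes in positive cells. The difference averaged 0.16 ± 0.76 (SE, n = 2 per group, limma adjusted p = 0.918). Dusp6 encodes the cytoplasmic phosphatase of ERK. It read 10.82 and 11.92 against 10.89 and 11.07, so that positive replicate 2 was high and the other 3 arrays lay close together. The difference averaged 0.39 ± 0.56 (SE, n = 2 per group, limma adjusted p = 0.702).

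Spry2, which encodes a Sprouty inhibitor that receptor signalling induces in epithelia, was read by 2 probe sets. Probe set 1436584_at read 8.99 and 10.36 in the positive arrays against 8.49 and 8.45 in the negative arrays, with both positive arrays higher. Probe set 1421656_at read 9.08 and 10.63 against 9.07 and 9.30, where positive replicate 1 fell between the negative arrays. For 1436584_at positive cells were on average 2.31-fold higher (log2 difference 1.21 ± 0.69 SE, 95% interval -0.08 to 2.49, n = 2 per group, limma adjusted p = 0.374). For 1421656_at the ratio was 1.59 (0.67 ± 0.79 SE, interval -0.78 to 2.12, adjusted p = 0.620 in limma). Both probe sets showed the same direction in the mean, and in both the larger same-number difference was that of replicate 2, 1.92 and 1.33 against 0.50 and 0.01.

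The step between the positive arrays recurred across these genes. Positive replicate 2 lay above positive replicate 1 by 1.76 for Dusp4, 1.41 for Dusp5, 1.11 for Dusp6, and 1.37 and 1.56 for the Spry2 probe sets on the log2 scale. The negative arrays differed by at most 0.54 in these 5 probe sets. Counted with 1 probe set per gene, the brightest, 4 of the 8 member genes had positive replicate 2 at least 1 log2 unit above positive replicate 1, beside 3.42% of all genes. This count was chosen after the values were seen. Positive replicate 2 was also the array with the lowest fibroblast, endothelial and immune marker means, as given above, and the part of those cells in the step was not tested. Positive replicate 1 had the lowest keratinocyte marker mean, and the gate gene Epcam lay 1.04 log2 units higher in positive replicate 2 than in positive replicate 1; their part was not tested either. Without positive replicate 2, the log2 difference became -0.66 for Dusp4, -0.55 for Dusp5, -0.17 for Dusp6 and -0.11 for Spry2 by 1421656_at, and was 0.52 for Spry2 by 1436584_at. Without positive replicate 1 the same values were 1.10, 0.86, 0.94, 1.45 and 1.90, none of them past the test (limma adjusted p = 0.343 to 0.449). Without a negative array Dusp5 turned to -0.12 (negative replicate 1 left out) and Dusp4 to -0.04 (negative replicate 2 left out).

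Spry1 encodes another Sprouty inhibitor. It read 7.20 and 7.35 in the positive arrays against 8.61 and 7.41 in the negative arrays. Both positive arrays lay below both negative arrays, but negative replicate 2 exceeded the nearer of them by only 0.06. The difference averaged -0.73 ± 0.60 (SE, 95% interval -1.89 to 0.42, n = 2 per group, limma adjusted p = 0.509).

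Spry4, a Sprouty relative that is also induced by ERK signalling, was read by 4 probe sets designed from 3 source sequences. Probe set 1440867_at read 5.07 and 5.36 in the positive arrays against 6.97 and 5.83 in the negative arrays, the only 1 of the 4 whose groups did not overlap. Probe set 1422020_at read 5.92 and 6.14 against 7.34 and 6.03, and 1422021_at read 4.34 and 4.62 against 5.71 and 4.59. Probe set 1445669_at read 3.57 and 3.71 against 4.68 and 3.64, near the floor in 3 of the 4 arrays. All 4 were highest in negative replicate 1. The log2 difference of 1440867_at was -1.18 ± 0.59 (SE, 95% interval -2.31 to -0.05, n = 2 per group), with an unadjusted p of 0.0435 and an adjusted p of 0.344 in limma. The others had differences of -0.65, -0.67 and -0.52 (limma adjusted p = 0.525 to 0.588).

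The step that separated Spry1 and Spry4 lay between the negative arrays. Negative replicate 1 exceeded negative replicate 2 by 1.20 for Spry1 and by 1.04 to 1.32 over the 4 Spry4 probe sets on the log2 scale, while the positive arrays differed by 0.14 to 0.30. Of all genes, 4.18% had such a step of at least 1 log2 unit by their brightest probe set, and 2 of the 8 member genes had it, Spry1 and Spry4; this count too was chosen after the values were seen. Negative replicate 1 held the highest mean of the fibroblast, endothelial and immune markers. Of the marker genes, 8 of 11 fibroblast, 8 of 10 endothelial and 4 of 10 immune genes had the same step, and their part in the Sprouty values was not tested. Without negative replicate 1, the log2 difference of Spry1 was -0.13 and that of Spry4 was -0.61 by 1440867_at and 0.006, -0.11 and 0.001 by the other 3 probe sets. Without negative replicate 2 the values were -1.34 for Spry1 and -1.75 for Spry4 by 1440867_at (limma adjusted p = 0.379 and 0.332). On the spike-in scale Spry1 was at -0.05 and Spry4 at -0.50 by 1440867_at and 0.015 to 0.17 by the other 3 probe sets.

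**Figure D2:**
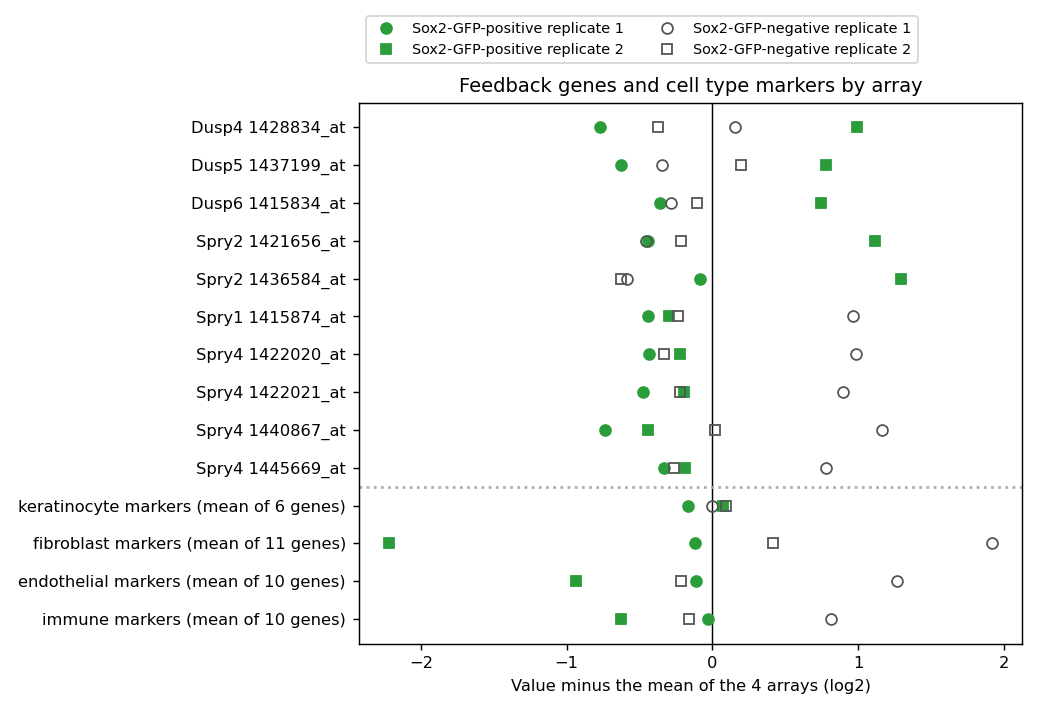
Values are shown minus the mean of the 4 arrays, on the log2 scale, for 10 probe sets of feedback genes (above the dotted line) and for the mean of 4 marker lists (below it), with 1 symbol per array. Positive replicate 2 (filled squares) lies to the right for Dusp4, Dusp5, Dusp6 and Spry2 and to the left for the fibroblast, endothelial and immune lists, and negative replicate 1 (open circles) lies to the right for Spry1, Spry4 and those 3 lists.

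Spred1 encodes a relative of the Sprouty proteins that recruits the RAS inactivator neurofibromin to the membrane, and 8 probe sets from 4 source sequences read it. Log2 differences were above 0 in 5 and below 0 in 3, from -1.25 to 0.45. The brightest, 1428777_at, read 8.46 and 8.92 in the positive arrays against 9.35 and 8.86 in the negative arrays. Probe set 1423161_s_at read 8.50 and 8.90 against 8.70 and 8.19, and 1423162_s_at read 7.55 and 8.07 against 7.22 and 7.49. In the last of these both positive arrays were higher, by a margin of 0.06, and in the other pair the groups overlapped.

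The Spred1 probe set with the widest spread was 1445228_at, which read 4.50 and 5.75 in the positive arrays against 7.09 and 5.67 in the negative arrays. Its difference averaged -1.25 ± 0.95 (SE, 95% interval -2.97 to 0.47, n = 2 per group, limma adjusted p = 0.461), with same-number differences of -2.59 for replicate 1 and 0.09 for replicate 2. Like the Spry4 probe sets, it was highest in negative replicate 1. Probe set 1443652_x_at stayed near the floor (4.37 and 4.01 against 3.88 and 3.96). The other 3 Spred1 probe sets, 1423160_at, 1452911_at and 1460116_s_at, lay between 7.42 and 8.58 in every array, with overlapping groups and log2 differences of 0.39, 0.08 and 0.00. Adjusted p over the 8 probe sets ran from 0.461 to 0.997 in limma.

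By replicate number, the difference between populations had opposite signs in replicates 1 and 2 for 13 of the 21 member probe sets, beside 37.3% of all probe sets. The genes concerned were Nras (by 1422687_at only), Dusp4, Dusp5, Dusp6, Spry4 and Spred1. Probe sets of 1 gene are not independent, and Spred1 and Spry4 have the most of them. By the brightest probe set of each gene, the signs were opposite in 5 of the 8 member genes, Dusp4, Dusp5, Dusp6, Spry4 and Spred1. The share over all genes was not computed for that count. For Spry1 and Spry2 the sign was shared in every probe set, negative for Spry1 (-1.41 and -0.06) and positive for Spry2. The labels do not say that arrays of the same number come from 1 tumour.

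**Figure D3:**
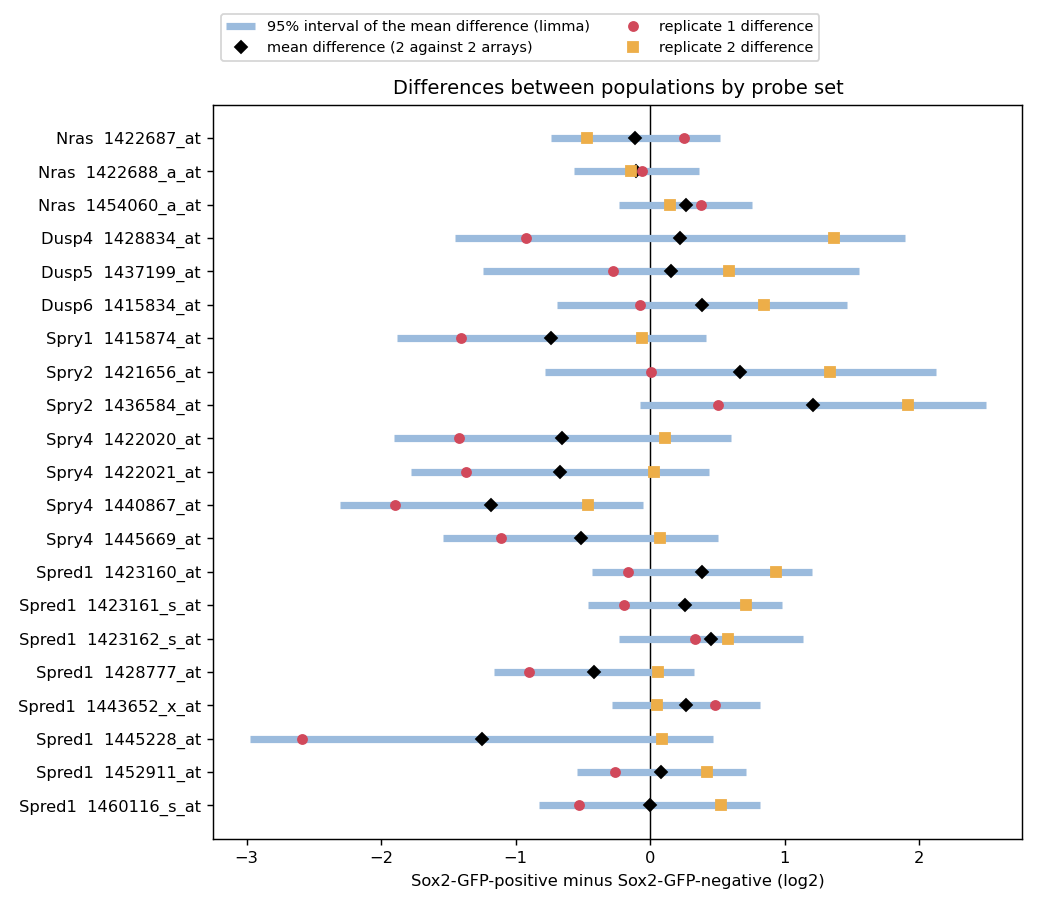
Rows are member probe sets and the axis is the log2 difference, Sox2-GFP-positive minus Sox2-GFP-negative. Diamonds give the mean difference of 2 against 2 arrays with its 95% limma interval (bar), circles the replicate 1 difference and squares the replicate 2 difference; all but 1 of the 21 bars, that of Spry4 1440867_at, include 0.

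Other genes of the pathway were read by their brightest probe set, in 4 lists chosen with earlier results of these data known. By limma 0 of the 52 measured genes passed in either direction, beside 0% of all genes in the same fit. At an unadjusted p under 0.05 there were 4 higher and 3 lower, where all genes gave 9.81% higher and 5.05% lower. Both positive arrays lay above both negative arrays in 12 of the 52 genes and below in 11, beside 35.5% and 14% of all genes. With the 0.69 that spike-in scaling adds, 3 of the 11 stay below 0, Gab1, Ksr1 and Epha4, and the other 8 turn above it.

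Among RAS relatives, adaptors, exchange factors and RAS inactivators, 14 of 15 listed genes were named on the array. Of these 1 lay above and 3 lay below, beside 35.5% and 14% of all genes. The median log2 difference was -0.16 against 0.14 over all genes. Rras2, a RAS relative, read 9.04 and 10.09 against 8.39 and 8.69, also highest in positive replicate 2. Gab1, a docking protein of growth factor receptors, read 7.67 and 7.72 against 8.28 and 8.77, and Mras, a RAS relative that takes part in RAF activation, 6.47 and 6.60 against 7.02 and 6.95. Shc1, an adaptor, read 9.68 and 10.06 against 10.29 and 10.06, and separated by only 0.01. Limma's adjusted p for these genes ran from 0.285 to 0.578.

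Among the kinases of the cascade and their scaffolds, 9 of 12 genes were named. Of these 1 lay above and 3 below, beside 35.5% and 14% of all genes. The median log2 difference was -0.07 against 0.14 over all genes. Map2k2, which encodes MEK2, read 9.51 and 9.55 against 9.03 and 9.02, a small and even difference of 0.51 ± 0.02 (SE, n = 2 per group, limma adjusted p = 0.324). The scaffold gene Ksr1 read 7.25 and 7.12 against 8.01 and 7.78 (-0.71 ± 0.14 SE, limma adjusted p = 0.277). Lamtor3, an endosomal MEK scaffold, and Shoc2, which helps to activate RAF, had differences of -0.37 and -0.29 with groups that did not overlap.

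Among the other phosphatase, Sprouty and Spred genes all 12 were named, with 5 above and 0 below, beside 35.5% and 14% of all genes. The median log2 difference was 0.19 against 0.14 over all genes. Dusp9 read 6.66 and 5.92 against 5.52 and 5.74, Dusp14 read 8.79 and 9.35 against 7.93 and 8.65, and Spred3 read 4.43 and 5.38 against 4.28 and 4.33. These differences were 0.66, 0.78 and 0.60 on the log2 scale, and limma's adjusted p was 0.406 to 0.508. Spred3 was close to the floor in every array but positive replicate 2, which limits its difference. Spred2, named after its values were seen because it steps between the positive arrays as Dusp4 does, read 8.64 and 9.64 against 8.54 and 8.18.

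Among genes that ERK signalling is known to raise, 17 of 19 were named. Of these 5 lay above and 5 below, beside 35.5% and 14% of all genes. The median log2 difference was 0.15 against 0.14 over all genes. Ereg, an EGF receptor ligand, read 9.55 and 9.88 against 8.43 and 7.37 (1.82 ± 0.56 SE, n = 2 per group, limma adjusted p = 0.25). Ccnd1, the cyclin of entry into the cell cycle, read 11.30 and 11.77 against 10.45 and 10.13 (1.24 ± 0.29 SE, limma adjusted p = 0.247). Etv4, an ETS factor, read 7.93 and 8.04 against 7.09 and 6.97 (0.96 ± 0.08 SE, limma adjusted p = 0.241). For these 3 genes both positive arrays were higher, whereas the groups overlapped for Dusp4, Dusp5 and Dusp6.

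Ier3 and Fosl1, named to complete the 5 genes of that list that lay above, were also higher in both positive arrays. Their margins were smaller, 0.35 and 0.11 (limma adjusted p = 0.36 and 0.487). The remaining members of that list lay lower in positive cells or overlapped. Epha4, an ephrin receptor, read 8.21 and 7.82 against 9.06 and 9.36 (-1.20 ± 0.25 SE, n = 2 per group, limma adjusted p = 0.243). The immediate early factor Egr1 read 11.61 and 11.99 against 12.51 and 12.24, and Ets1 read 8.54 and 8.59 against 8.85 and 8.92 (limma adjusted p = 0.368 and 0.473). Etv5, named after its values were seen because it too was highest in positive replicate 2, read 7.25 and 8.43 against 7.28 and 6.97. Positive replicate 2 lay at least 1 log2 unit above positive replicate 1 in 6 of the 52 genes, Rras, Rras2, Rasa2, Spred2, Etv5 and Plaur, beside 3.42% of all genes. Among these 6, Rasa2 was highest in negative replicate 2 (7.54) and not in positive replicate 2 (7.18). Negative replicate 1 lay as far above negative replicate 2 in 1 of the 52 genes, Ereg, beside 4.18% of all genes. Both counts use steps seen in the members, so they too were chosen after the values were seen.

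**Figure D4:**
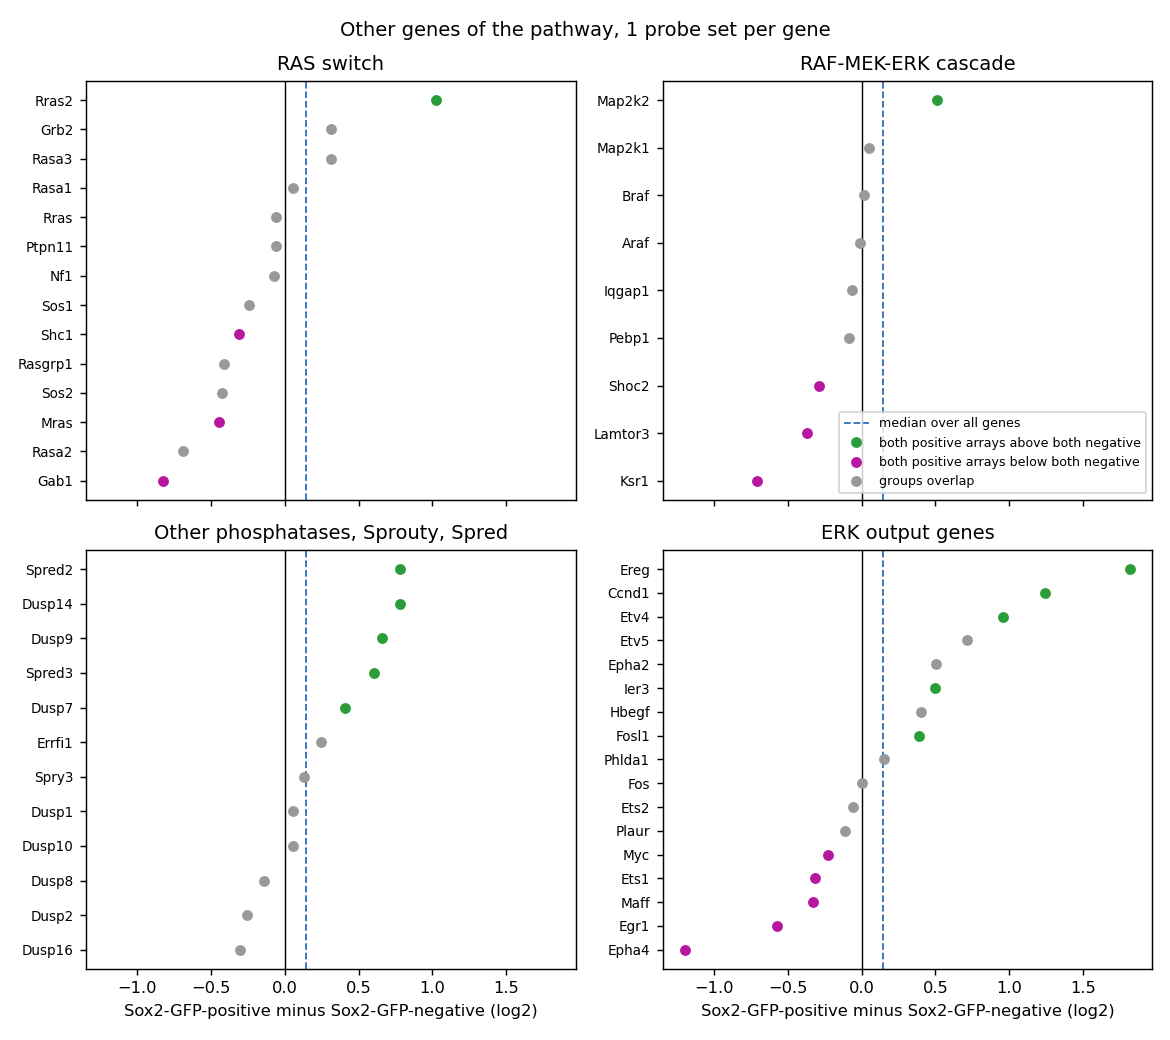
Each point is the log2 difference, Sox2-GFP-positive minus Sox2-GFP-negative, of 1 gene of the 4 pathway lists by its brightest probe set. Green points have both positive arrays above both negative arrays, purple points have both below and grey points overlap; the dashed line is the median over all genes (0.14). Ereg, Ccnd1, Rras2 and Etv4 lie farthest to the right and Epha4 and Gab1 farthest to the left.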

How the data were processed

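RNA of 4 sorted cell samples was amplified with a 3' in vitro transcription kit and hybridised to Affymetrix arrays of the whole mouse genome, per the labels' protocols. The log2 values of 45101 probe sets were deposited by the authors in 1 table; the log2 scale was read from the values. The submitters' processing notes name R 2.14.0, while the sources used here do not give the background correction, normalization or summary. Groups and replicate numbers came from the sample titles. The 64 control probe sets were left out. Probe sets were named from the platform annotation only where it gives 1 symbol (34945). The fit was limma 3.58.1 in R 4.3.3 (lmFit, eBayes, group only, 2 residual degrees of freedom, prior 2.56), tested on simulated data, with Benjamini-Hochberg adjustment over all 45037 probe sets; SEs are unmoderated and intervals moderated. Members, lists and tests were chosen with earlier results of these data known. Named were every member probe set and, from each other list, any gene called and otherwise up to 3 genes per direction with the widest gap between groups. Alternatives were a replicate block, quantile normalization, equal medians, scaling to 27 spike-in probe sets, no dim probe sets, 1 probe set or the mean per gene, a trended prior and each array left out. The number of arrays limits the precision.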

Additional observations from a re-analysis of the deposited data

How the results depend on the processing

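Of 215 recomputed log2 differences of member probe sets, 68 could not move, since the replicate block, the trended prior, leaving out dim probe sets and 1 probe set per gene keep each difference as it is. Of the other 147, 22 changed direction, 14 with an array left out and 8 with spike-in scaling or equal medians, which shift all probe sets alike; 4 passed the threshold, with spike-in scaling. With spike-in scaling, which adds 0.69 to every log2 difference by construction, 4 member probe sets and 18533 of all probe sets in both directions passed, against 0 and 0, the members' median became 0.77, and 11 member probe sets had groups that did not overlap, against 7, beside 79.3% and 48.1% of all probe sets. Differences then turned to 0.58 and 0.58 for Nras (1422687_at, 1422688_a_at), to 0.032, 0.015 and 0.17 for Spry4 (1422020_at, 1422021_at, 1445669_at), and to 0.27 and 0.68 for Spred1 (1428777_at, 1460116_s_at). With equal medians Spred1 by 1460116_s_at turned to 0.078. With 1 probe set per gene 2 of the 8 member genes did not overlap, 0 above and 2 below, beside 49.5% of all genes, and with probe sets averaged per gene 3, 1 above and 2 below, beside 49.2%, as fewer features were counted; log2 differences were not recomputed per probe set for that mean.

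Leaving out 1 array (where the lone array of a group is assumed to vary like the others) moved the members' median to between -0.17 and 0.21, the count without overlap to between 12 and 15, beside 70.6% to 79.0% of all probe sets, as 3 arrays overlap less often by construction, and the counts of calls to 0 and 0 throughout. Directions changed within these ranges: -0.31 to 0.089 for Nras by 1422687_at, -0.66 to 1.10 for Dusp4, -0.55 to 0.86 for Dusp5, -0.17 to 0.94 for Dusp6, -0.11 to 1.45 for Spry2 by 1421656_at, -1.31 to 0.006 and -1.04 to 0.001 for Spry4 by 1422020_at and 1445669_at, and -0.13 to 0.30 and -0.35 to 0.34 for Spred1 by 1452911_at and 1460116_s_at.

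The labels share replicate numbers between groups without saying that they pair the arrays, and the replicate 1 minus replicate 2 differences of the 2 groups correlated with r = 0.183 across probe sets, which are not independent. With the replicate block 0 member probe sets and 0 of all probe sets passed (lowest adjusted p = 0.271 and 0.0974 in limma), so it changed no call. Quantile normalization, leaving out dim probe sets and a trended prior also left all counts of calls at 0. Signal near the floor limits Spry4 by 1445669_at and Spred1 by 1443652_x_at, and to a lesser degree Spry4 by 1422021_at.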
